A study of Sus scrofa with 6 samples.

Results

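The machinery that copies DNA in S phase was described here through 54 genes of DNA replication and of entry into S phase. Their rows were found by symbol, and the list was chosen with earlier results of these data known. Of these, 50 had a row among the 17670 genes of the count table. PCNA, GINS2, FEN1 and RRM2 had no row under these symbols and were not analysed here. The cells were labelled as immature Sertoli cells of fetal pig testes, taken between day 80 and day 90 of gestation and cultured. Of the 6 libraries, 3 came from control cells and 3 from cells that received 250 µM of AA2P (L-ascorbic acid 2-phosphate, a vitamin C derivative that keeps in culture medium) once they had been cultured for 6 h. How long AA2P acted is not given in the sources used here, and no line, allele or other agent set the groups apart in the labels. The comparison asked how the levels of these transcripts differed between the AA2P and the control cells.

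Replication begins in G1, when the origin recognition complex, CDC6 and CDT1 load the MCM2-7 helicase on DNA, a step called licensing. At the start of S phase kinases and the factors CDC45, GINS and MCM10 turn the loaded helicase on, and polymerases, a sliding clamp and its loader follow. Many of these genes are targets of the E2F transcription factors, which the retinoblastoma protein (RB) restrains until cyclin D and cyclin E kinases phosphorylate it. Sertoli cells divide during fetal and early postnatal life and stop dividing around puberty, so their proliferation sets the number of these nurse cells in the adult testis.

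Library totals ran from 18747307 to 23521291 counts, and TMM scaling factors, which correct the totals for a few very abundant genes, from 0.941 to 0.945 in the controls and from 1.05 to 1.07 with AA2P. Over all 12701 genes tested, scaling by library totals moved the median change by 0.17 (log2), so counts of members called are given under both scalings, and levels and fold changes are on the TMM scale where no other is named. Levels are CPM, the counts of a gene scaled by TMM to libraries of equal size. A gene with 0 counts could still have had up to 3, or 0.123 to 0.165 CPM, by counting error alone. Whether libraries of 1 group stem from different cultures or pigs is not stated, so p-values here reflect the spread among libraries, which may be technical. Of 13 Sertoli markers 9 had a row, with a summed level of 4486 to 4818 CPM in the controls and 1335 to 1911 CPM with AA2P. Most of that sum was 1 gene, CLU (clusterin), a secreted protein that many other cell types also make, at a mean of 4230 CPM in the controls and 1302 CPM with AA2P. SOX9, which directs Sertoli cell fate, was at 11.6 CPM in controls and 2.22 CPM with AA2P. NR5A1, DHH and INHA were below 0.3 CPM in every library. Of the 9 Sertoli markers with a row 6 passed the filter on low counts. Under both scalings 5 of these 6 were called lower and 0 higher. Over all tested genes 26.1% were lower and 26.0% higher under TMM, and 14.3% and 45.1% with library totals. Apart from CLU and SOX9, the tested Sertoli markers are not given one by one here. GATA4, CLDN11, FSHR and DMRT1 had no row under these symbols, nor did the kidney tubule markers PAX8 and LHX1. A missing row does not show that a gene was silent. The kidney tubule markers PAX2, HNF4A, CDH16 and LRP2 were all 4 called higher with AA2P, with a summed level of 229 to 274 CPM in the controls and 812 to 1110 CPM with AA2P. The markers went in part against the label, with NR5A1, DHH and INHA near 0 and kidney tubule markers present in all 6 libraries. The 6 tested Sertoli markers, in turn, were detected. The cells are called Sertoli cells here only as labelled. Summed levels in the control and then the AA2P libraries were 413 to 419 and 293 to 345 CPM for smooth muscle markers, 5.58 to 5.84 and 6.36 to 7.38 for Leydig, 2.03 to 2.87 and 6.08 to 8.03 for endothelial, 1.44 to 2.54 and 0.396 to 0.616 for macrophage, 1.22 to 1.60 and 1.25 to 2.22 for germ cell, and 0.180 to 0.441 and 0.297 to 0.616 for stromal markers. The part of these markers in the results below was not tested.

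Most replication and S phase genes were slightly higher with AA2P. By edgeR's quasi-likelihood test, 33 of the 50 were called higher and 5 lower at a Benjamini-Hochberg adjusted p of 0.05, where 26.0% of all tested genes were called higher and 26.1% lower, or 52.1% in either direction. The 33 make 66.0% of the members. As the members were chosen with earlier results of these data known, this share is descriptive and is no independent test. With library totals 43 were called higher and 0 lower, where 45.1% of all tested genes were higher and 14.3% lower, or 59.4% in either direction. The median log2 fold change over the 50 genes was 0.23 under TMM and 0.40 with library totals, beside 0.00 and 0.17 over all tested genes. All 33 genes called higher under TMM were also called higher with library totals, while the 5 called lower, CDC45, RFC2, RFC4, CCND1 and CCND2, were not called with library totals. Under TMM 42 of the 50 lay within 0.5 of no change on the log2 scale, as did 76.9% of all tested genes, and with library totals 32 of the 50 and 73.9% of all tested genes did. CDC6, GINS4, E2F2, E2F8, CCNE2 and CDKN2C were called at least 1.5-fold higher under TMM, 6 of 50 beside 10.3% of all tested genes. With library totals CDT1, GINS3, POLE2, TK1, E2F1 and E2F7 joined them, 12 of 50 beside 14.8% of all tested genes. Under TMM every AA2P library lay above every control library in 34 genes and below in 6, beside 29.8% and 29.5% of all tested genes, or 59.3% in either direction. With library totals this held for 42 and 0 genes, beside 48.6% and 15.8%, or 64.4% in either direction. In bulk RNA a change in the number of cells in S phase and a change in RNA per cell cannot be told apart. Leaving out AA2P library 3, which lay nearest the controls over all genes, gave 34 members higher and 5 lower.

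**Figure D1:**
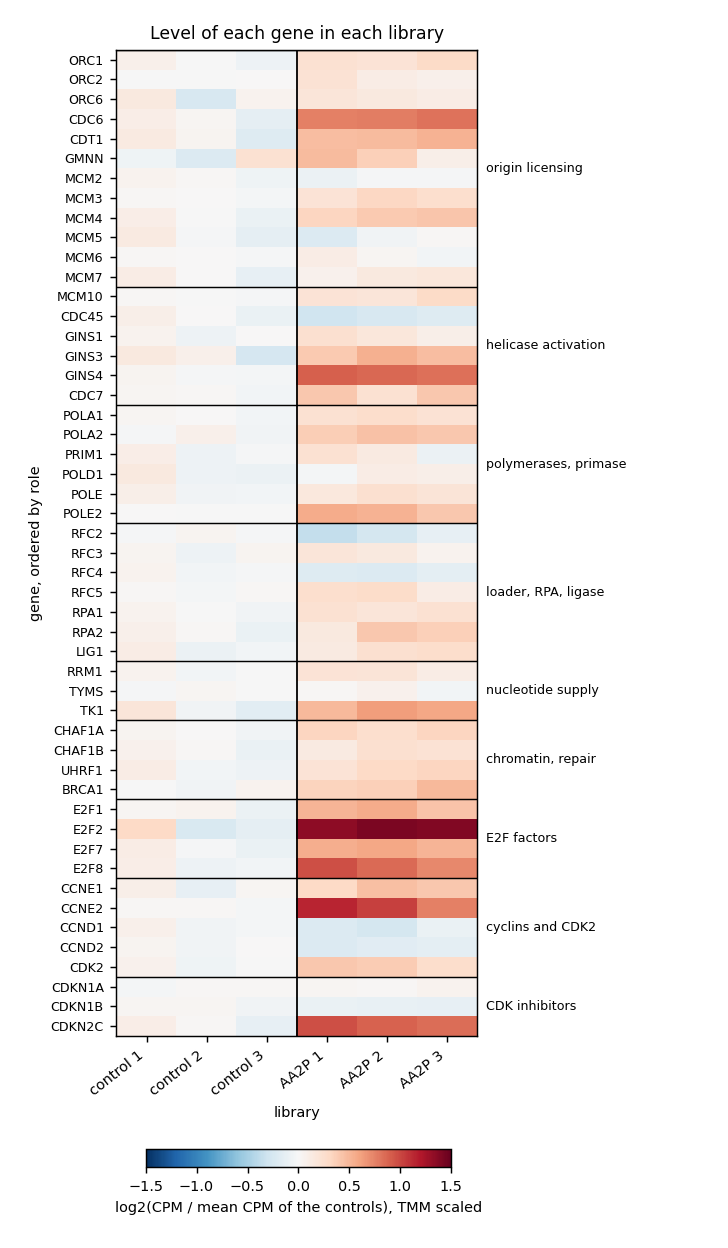
Level of each of the 50 genes (rows, ordered by role) in each of the 6 libraries (columns), as the log2 of its CPM over the mean CPM of the controls, TMM scaled. The darkest AA2P cells belong to E2F2, CCNE2, CDKN2C, GINS4, E2F8 and CDC6, and MCM2, TYMS and CDKN1A stay pale in all 6 libraries.

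**Figure D2:**
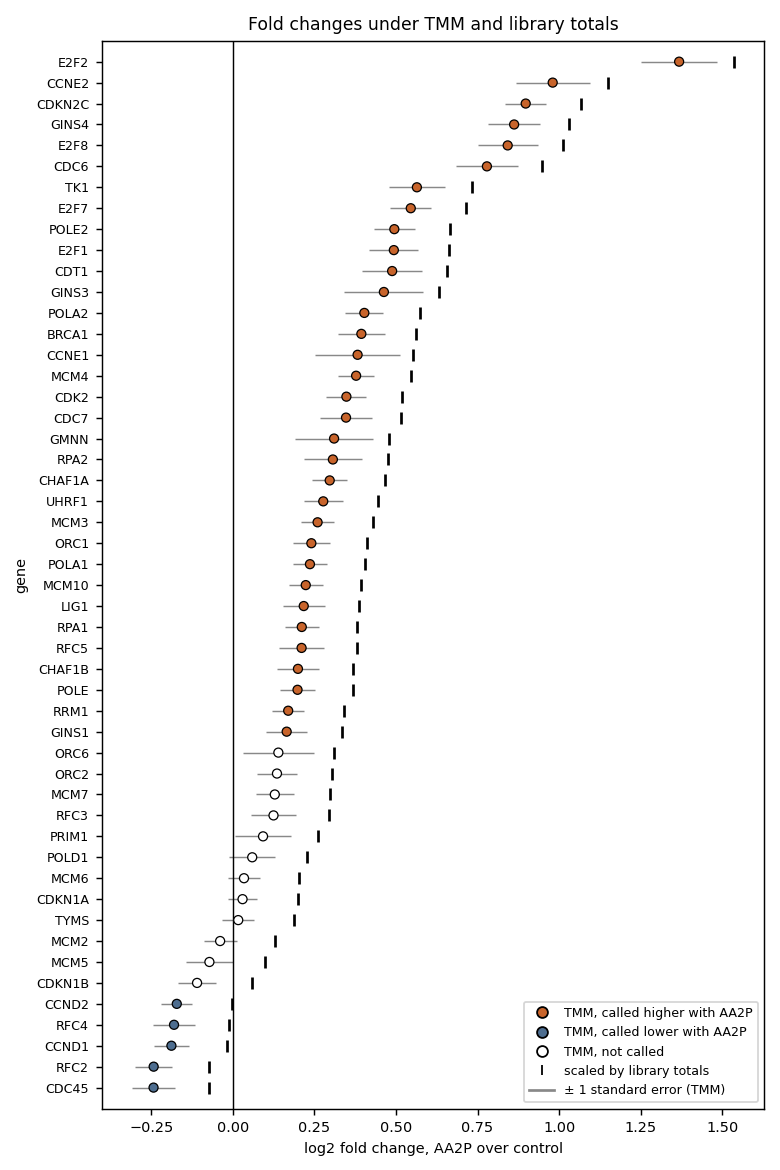
Log2 fold change of each gene, AA2P over control, under TMM (circles, with 1 standard error to each side, filled where called) and with library totals (vertical ticks). E2F2 lies at 1.37 and CDC45 at -0.24 under TMM, and the ticks of the 5 genes called lower lie between -0.07 and 0.00.

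Of the 9 roles, the E2F transcription factors had the highest median change. E2F1 and E2F2 activate genes of S phase, and E2F7 and E2F8 are repressors that are themselves E2F targets. All 4 rose under both scalings, with a median log2 fold change of 0.69, or 0.86 with library totals. Over all tested genes 26.0% were called higher under TMM and 45.1% with library totals. E2F2 was at 9.78, 6.78 and 7.23 CPM in control libraries 1 to 3 and at 20.1, 21.1 and 20.7 CPM in AA2P libraries 1 to 3. This was the largest change of the 50 genes, a 2.58-fold increase or 1.37 on the log2 scale (standard error 0.12.) E2F8 was at 13.6, 12.1 and 12.4 CPM in the controls and 24.9, 22.8 and 20.8 CPM with AA2P, a 1.79-fold increase. E2F7 went from 50.9, 46.4 and 44.1 to 68.7, 70.7 and 67.1 CPM, a 1.46-fold increase. E2F1 went from 21.0, 21.4 and 19.3 to 29.2, 30.2 and 27.6 CPM, a 1.41-fold increase. In each of the 4 genes the lowest AA2P library lay above the highest control library, as in 29.8% of all tested genes. Their adjusted p-values by edgeR's quasi-likelihood test were 4.8e-08 for E2F2, 9.9e-07 for E2F8, 1.7e-06 for E2F7 and 3.7e-05 for E2F1, and all held in each alternative fit.

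Under TMM the E type cyclins CCNE1 and CCNE2 rose and the D type cyclins CCND1 and CCND2 fell, while CCND3, a D type cyclin outside the 54 genes, rose. Cyclin E binds CDK2 at the G1 to S transition, and cyclin D, which binds CDK4 and CDK6, acts earlier, in response to growth factors. CCNE2 was at 7.39, 7.38 and 7.14 CPM in the controls and at 16.1, 14.9 and 12.4 CPM with AA2P, a 1.97-fold increase or 0.98 on the log2 scale (standard error 0.11.) The controls were tightly grouped, and AA2P library 3 was the lowest of the AA2P libraries. CCNE1, at 4.91, 4.24 and 4.71 CPM in the controls, and the member with the fewest reads, was at 5.71, 6.29 and 6.12 CPM with AA2P, a 1.30-fold increase. CDK2 rose 1.27-fold, from 48.8, 44.7 and 46.7 to 61.8, 60.9 and 56.0 CPM. Both D type cyclins among the members were lower under TMM. CCND1 was at 409, 377 and 382 CPM in the controls and 337, 326 and 362 CPM with AA2P, 1.14-fold lower. CCND2 was at 535, 498 and 522 CPM and at 450, 461 and 469 CPM with AA2P, 1.13-fold lower. The groups did not overlap in these 2 genes under TMM, where 29.5% of all tested genes were lower without overlap. With library totals the log2 fold changes were -0.02 for CCND1 and 0.00 for CCND2, with adjusted p-values of 0.774 and 0.968 by edgeR. Under TMM edgeR's adjusted p-values were 2.1e-06 for CCNE2, 0.0206 for CCNE1, 0.00017 for CDK2, 0.00711 for CCND1 and 0.00625 for CCND2. Without control replicate 1 CCND1 had an adjusted p of 0.0531 by edgeR, and CCNE1 had 0.0855 without control replicate 2 and 0.0678 without AA2P replicate 2. The DESeq2 Wald test gave CCNE1 an adjusted p of 0.0606.

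Of the 3 CDK inhibitors CDKN2C rose, and CDKN1A and CDKN1B were not called under TMM. CDKN2C encodes p18, which holds CDK4 and CDK6 in check, and CDKN1A and CDKN1B encode p21, a p53 target, and p27, which act on CDK2 complexes. CDKN2C was at 51.9, 48.9 and 44.6 CPM in the controls and at 94.7, 89.5 and 86.9 CPM with AA2P. The groups did not overlap, as in 29.8% of all tested genes in the same direction. CDKN2C rose 1.86-fold, or 0.90 on the log2 scale (standard error 0.06). Its adjusted p of 5.8e-09 by edgeR's quasi-likelihood test was the smallest of the 50 genes. CDKN1A was at 260, 269 and 268 CPM in the controls and 271, 268 and 274 CPM with AA2P, and the groups overlapped. Its log2 fold change was 0.03 with a standard error of 0.05 under TMM, and with library totals it was called higher, at 0.20 (adjusted p of 0.00131 by edgeR). CDKN1B was at 44.2, 44.1 and 41.7 CPM in the controls and 40.6, 40.0 and 39.9 CPM with AA2P. It was not called under either scaling, at -0.11 under TMM and 0.06 with library totals. Of 14 tested p53 targets other than CDKN1A, 6 were called higher and 5 lower, or 8 and 5 with library totals, beside 26.0% and 26.1% of all tested genes under TMM and 45.1% and 14.3% with library totals, and their median log2 fold change was 0.09. PMAIP1, a death factor, and GDF15, a stress cytokine, were at -1.98 and -1.04 on the log2 scale, and PLK3, a stress kinase, at -0.98. The 6 called higher are not named here, and the largest rise among the 14 was 0.50.

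**Figure D3:**
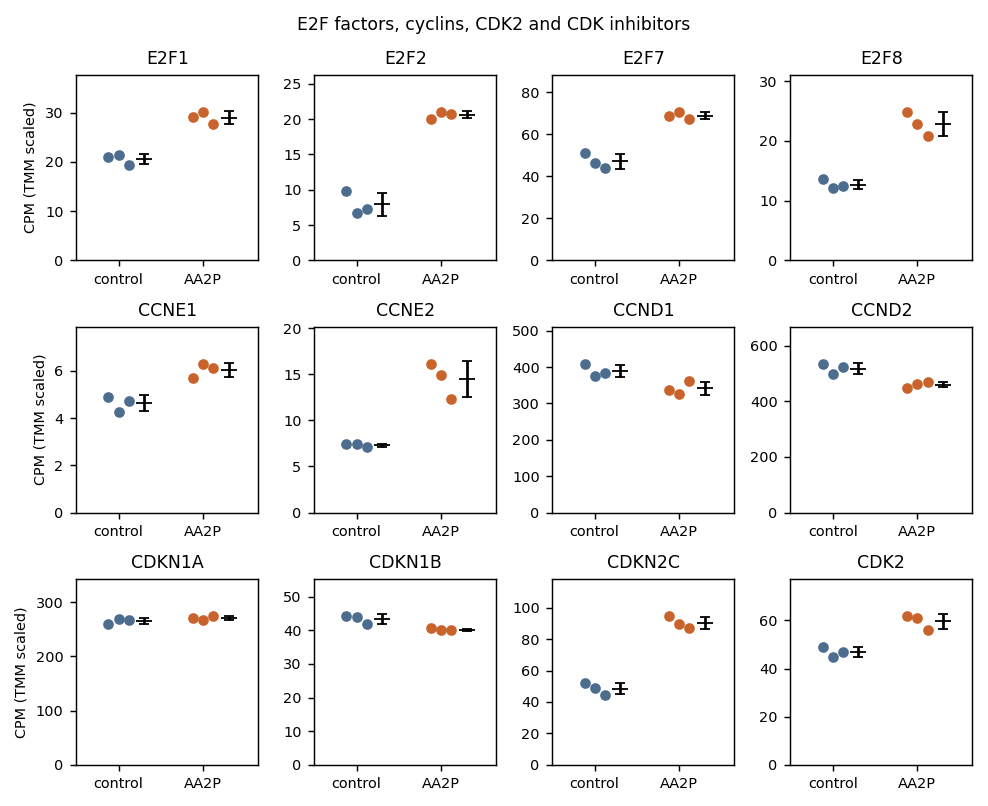
Level of the E2F factors, E and D cyclins, CDK2 and CDK inhibitors in CPM, TMM scaled, each axis from 0. Points are single libraries (3 controls in blue, 3 AA2P in orange) and bars the mean with 1 SD to each side. The groups overlap only in CDKN1A, and in 59.3% of all tested genes they do not overlap.

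Among the 12 licensing genes 6 rose and none fell under TMM, beside 26.0% and 26.1% of all tested genes. With library totals 11 rose and none fell, beside 45.1% and 14.3% of all tested genes. The median log2 fold change was 0.19, or 0.36 with library totals. CDC6, the loader that brings the helicase to the origin, was at 10.5, 10.1 and 8.98 CPM in the controls and at 16.6, 16.8 and 17.4 CPM with AA2P. This was a 1.72-fold increase, or 0.78 on the log2 scale (standard error 0.09.) CDT1, its partner, went from 15.6, 14.6 and 12.4 to 19.6, 19.8 and 20.4 CPM, a 1.40-fold increase. In both genes all AA2P libraries lay above all controls, as in 29.8% of all tested genes. Geminin (GMNN), the protein that inhibits CDT1, was at 13.3, 12.1 and 16.4 CPM in the controls and 19.4, 17.8 and 14.8 CPM with AA2P, so that the groups overlapped. GMNN passed the test at an adjusted p of 0.038 by edgeR, but it had 0.131 and 0.175 without control replicates 1 and 2, and 0.136 and 0.104 without AA2P replicates 1 and 2. The largest subunit of the origin recognition complex, ORC1, rose 1.18-fold, while ORC2 and ORC6, each at 0.14 on the log2 scale, were not called. ORC2 had an adjusted p of 0.0724 by edgeR, and 0.0311 without AA2P replicate 3.

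The 6 subunits of the MCM2-7 helicase, which form 1 ring with 1 copy of each, were called in part. MCM4 and MCM3 rose under TMM, where 26.0% of all tested genes were called higher, and the other 4 were not called. MCM4 rose 1.30-fold, from 149, 139 and 130 to 175, 183 and 185 CPM, and MCM3 rose 1.20-fold, from 121, 120 and 116 to 137, 148 and 142 CPM. In both the groups did not overlap, as in 29.8% of all tested genes in the same direction. MCM2, MCM5, MCM6 and MCM7 were not called, with log2 fold changes of -0.04, -0.07, 0.03 and 0.13 and overlapping groups. MCM2 was at 136, 133 and 126 CPM in the controls and 124, 130 and 130 CPM with AA2P. With library totals MCM2, MCM6 and MCM7 were also called higher, at 0.13, 0.20 and 0.30, beside 45.1% of all tested genes. MCM5 was not called there. MCM7 had an adjusted p of 0.076 by edgeR, and 0.026 without control replicate 1 and 0.0351 without AA2P replicate 1. Adjusted p-values by edgeR's quasi-likelihood test were 2.7e-05 for MCM4, 0.00036 for MCM3, 3.1e-06 for CDC6, 0.00034 for CDT1 and 0.00225 for ORC1.

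Of the 6 genes that switch the helicase on, 5 rose and CDC45 fell under TMM, beside 26.0% and 26.1% of all tested genes. GINS4, a subunit of the GINS complex, was at 13.6, 13.1 and 13.0 CPM in the controls and at 24.7, 24.1 and 23.5 CPM with AA2P. It rose 1.82-fold, or 0.86 on the log2 scale (standard error 0.08), and the libraries of each group were tightly grouped. GINS3 rose 1.38-fold, from 7.66, 7.27 and 5.78 to 9.06, 10.0 and 9.49 CPM, and CDC7, the kinase that phosphorylates the MCM ring, rose 1.27-fold, from 18.8, 18.7 and 18.0 to 24.5, 21.6 and 24.5 CPM. MCM10 rose 1.17-fold and GINS1 1.12-fold. CDC45, which joins MCM2-7 and GINS in the active helicase, was at 44.5, 42.2 and 39.1 CPM in the controls and 34.0, 35.6 and 36.6 CPM with AA2P, 1.18-fold lower. All AA2P libraries lay below all controls, as in 29.5% of all tested genes. With library totals CDC45 was at -0.07 on the log2 scale with an adjusted p of 0.353 by edgeR, and its groups overlapped. There 5 genes were called higher, beside 45.1% of all tested genes. Under TMM edgeR's adjusted p-values were 1.3e-07 for GINS4, 0.00434 for GINS3, 0.00172 for CDC7, 0.00166 for MCM10, 0.0367 for GINS1 and 0.00575 for CDC45. GINS1 was above 0.05 without 4 of the 6 libraries in turn, at 0.17 and 0.081 without control replicates 2 and 3 and at 0.121 and 0.089 without AA2P replicates 1 and 2. It was also above 0.05 by the DESeq2 Wald test, at 0.06, without the filter on low counts, at 0.0502, and with the replicate block, at 0.0522.

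The polymerases rose in part. Polymerase alpha with primase starts each strand, polymerase epsilon extends the leading strand and polymerase delta the lagging strand. POLE2, the second subunit of polymerase epsilon, went from 34.0, 33.7 and 33.5 CPM to 49.8, 48.6 and 44.5 CPM, a 1.41-fold increase. POLA2, the accessory subunit of polymerase alpha, went from 44.6, 47.8 and 43.6 to 58.5, 61.4 and 59.9 CPM, a 1.32-fold increase. The catalytic subunits POLA1 and POLE rose 1.18-fold, from 73.7, 72.9 and 70.7 to 84.9, 87.1 and 84.1 CPM, and 1.15-fold. None of these 4 genes had overlapping groups, and 29.8% of all tested genes were likewise higher without overlap. The 4 were called higher under TMM, as were 26.0% of all tested genes. The catalytic subunit of polymerase delta, POLD1, and the primase subunit PRIM1 had log2 fold changes of 0.06 and 0.09, with overlapping groups, and were not called under TMM. All 6 were called higher with library totals, beside 45.1% of all tested genes. Adjusted p-values by edgeR's quasi-likelihood test were 5.8e-06 for POLE2, 2.4e-05 for POLA2, 0.00103 for POLA1 and 0.0049 for POLE.

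The clamp loader subunits went both ways under TMM, as did all tested genes, of which 26.0% were called higher and 26.1% lower. Replication factor C loads the PCNA clamp with 1 large and 4 small subunits, and RFC2 to RFC5 are the small ones. RFC5 rose 1.16-fold, from 28.4, 27.6 and 28.5 to 33.5, 34.0 and 30.4 CPM. RFC2 was 1.18-fold lower, at 238, 249 and 238 CPM in the controls and 189, 202 and 221 CPM with AA2P, and RFC4 1.13-fold lower, at 36.2, 33.9 and 34.5 and then 30.5, 30.2 and 31.6 CPM. AA2P library 3 was the nearest to the controls in these 3 genes. RFC3 was at 0.12 on the log2 scale and was not called. With library totals RFC2 and RFC4 were at -0.07 and -0.01, with adjusted p-values of 0.271 and 0.893 by edgeR. RFC3 was called higher there, beside 45.1% of all tested genes, and 14.3% were called lower. The single-strand binding proteins RPA1 and RPA2 rose 1.16-fold and 1.24-fold, and LIG1, the ligase that joins lagging strand fragments, rose 1.16-fold. RPA2 was at 18.3, 17.7 and 16.3 CPM in the controls and 19.2, 23.0 and 22.3 CPM with AA2P, with AA2P library 1 close to the controls. RPA1 was at 92.8, 88.9 and 85.9 CPM and then at 105, 101 and 104 CPM, and LIG1 at 56.7, 49.6 and 51.2 and then at 57.9, 62.2 and 63.2 CPM. Adjusted p-values by edgeR's quasi-likelihood test were 0.0172 for RFC5, 0.00204 for RFC2, 0.0264 for RFC4, 0.00253 for RPA1, 0.00859 for RPA2 and 0.00933 for LIG1. Several of these calls were lost when 1 library was left out, with the direction kept. By edgeR RFC5 had an adjusted p of 0.071 without control replicate 2, at 0.19 on the log2 scale against 0.21 with all libraries, and 0.0853 without AA2P replicate 2, at 0.18. RPA2 had 0.0513 without AA2P replicate 2, at 0.26 against 0.31, and LIG1 had 0.0644 without control replicate 2, at 0.18 against 0.22. RFC4 had 0.105 without control replicate 1, 0.0911 without AA2P replicate 2, 0.0529 with the replicate block and 0.0586 by the DESeq2 Wald test.

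Of the 3 genes of deoxynucleotide supply, TK1 and RRM1 rose under TMM, where 26.0% of all tested genes were called higher. Thymidine kinase 1 (TK1), the salvage enzyme of S phase, was at 24.5, 20.9 and 19.4 CPM in the controls and at 30.3, 33.3 and 32.3 CPM with AA2P, a 1.48-fold increase or 0.56 on the log2 scale (standard error 0.09.) RRM1, the large subunit of ribonucleotide reductase, rose 1.12-fold, from 212, 199 and 204 to 236, 236 and 221 CPM. Thymidylate synthase (TYMS), which makes thymidylate by the other route, was at 164, 170 and 167 CPM in the controls and 169, 175 and 162 CPM with AA2P, with overlapping groups. TYMS was at 0.02 on the log2 scale with a standard error of 0.05 and was not called, while with library totals it was called higher at 0.19. Adjusted p-values by edgeR's quasi-likelihood test were 3.6e-05 for TK1 and 0.00893 for RRM1, and RRM1 had 0.0653 without control replicate 2.

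The 4 genes that act on chromatin and repair behind the fork rose by small amounts under both scalings. Their median log2 fold change was 0.29, or 0.46 with library totals. Beside them 26.0% of all tested genes were called higher under TMM and 45.1% with library totals. BRCA1, a repair factor that protects stalled forks, was at 22.4, 21.8 and 23.4 CPM in the controls and at 28.4, 28.9 and 31.5 CPM with AA2P, a 1.31-fold increase. CHAF1A and CHAF1B, subunits of the chromatin assembly factor that places histones on new DNA, rose 1.23-fold and 1.15-fold. UHRF1, which brings the maintenance DNA methyltransferase to newly copied DNA, rose 1.21-fold, from 81.3, 73.3 and 71.6 to 87.0, 93.1 and 94.0 CPM. CHAF1A was at 64.4, 62.7 and 60.4 CPM in the controls and 77.9, 74.3 and 78.1 CPM with AA2P. In all 4 genes the AA2P libraries lay above the controls, as in 29.8% of all tested genes under TMM. Adjusted p-values by edgeR's quasi-likelihood test were 0.00026 for BRCA1, 0.00023 for CHAF1A, 0.0171 for CHAF1B and 0.00094 for UHRF1. CHAF1B had 0.0948 without control replicate 3 and 0.0751 without AA2P replicate 2.

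Other genes of the same processes, taken from related lists, are given by their counts and medians. Over all tested genes 26.0% were higher and 26.1% lower, or 45.1% and 14.3% with library totals. Of 13 other licensing and firing factors 5 were higher and 2 lower, or 8 and 1 with library totals, with a median log2 fold change of 0.11. RECQL4, a helicase of origin firing, rose 1.35-fold and MTBP 1.24-fold, and ORC4, a subunit of the origin recognition complex, was 1.27-fold lower. Without control replicate 2 only 3 of this list were higher. Of 19 other fork and polymerase genes 8 were higher and 1 lower, or 12 and 0 with library totals, with a median of 0.15. The histone chaperone ASF1B rose 1.96-fold, from 12.9 ± 0.628 to 25.3 ± 0.749 CPM (SD, n = 3), the polymerase epsilon subunit POLE3 1.26-fold and the single-strand binding subunit RPA3 1.51-fold. TIPIN, a fork protection factor, was the 1 lower gene and was not called without AA2P replicate 2. Of 12 other genes of nucleotide synthesis 2 were higher and 4 lower, or 4 and 0 with library totals, with a median of -0.08. GART and PAICS, enzymes of purine synthesis, were 1.22-fold and 1.17-fold lower, while DUT, which removes dUTP, rose 1.21-fold. The largest change in this list was a rise of 0.96 on the log2 scale, in a gene not named here.

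The RB and DREAM pathway restrains E2F targets. Its list here also holds E2F3, MYBL2 and FOXM1, which activate genes. Of the 14 tested genes 5 were higher and 4 lower, near the shares over all tested genes (26.0% and 26.1%), or 7 and 2 with library totals (45.1% and 14.3%). Their median log2 fold change was 0.03. RB1 itself was 1.36-fold lower, E2F6, a repressor, was 1.28-fold lower, and TFDP2, a partner that E2F factors need to bind DNA, rose 1.70-fold. All 3 calls were also made with library totals. Without control replicate 3 only 3 genes of this list were higher, and without AA2P replicate 2 only 2 were lower. Of 16 other regulators of G1 and S phase 8 were higher and 2 lower, or 11 and 1 with library totals, with a median of 0.16. MYC, a growth-driving transcription factor, was 1.31-fold lower, the cyclin CCND3 rose 1.29-fold and SKP2, which targets p27 for breakdown, rose 1.33-fold. Without control replicate 3 or AA2P replicate 2 the count of higher genes was 5, and the lower count was 1 without each of control replicates 1, 2 and 3 and AA2P replicate 2. Of 17 genes of the S phase checkpoint and homologous recombination 7 were higher and 3 lower, or 12 and 0 with library totals, with a median of 0.12. RAD54L, EXO1 and BRCA2, which act in strand exchange and resection, rose 1.42-fold, 1.34-fold and 1.28-fold. Of 19 mitotic genes 14 were higher and 0 lower, or 17 and 0 with library totals, with a median of 0.24, and CDCA8, a subunit of the chromosomal passenger complex, rose 1.42-fold.

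**Figure D4:**
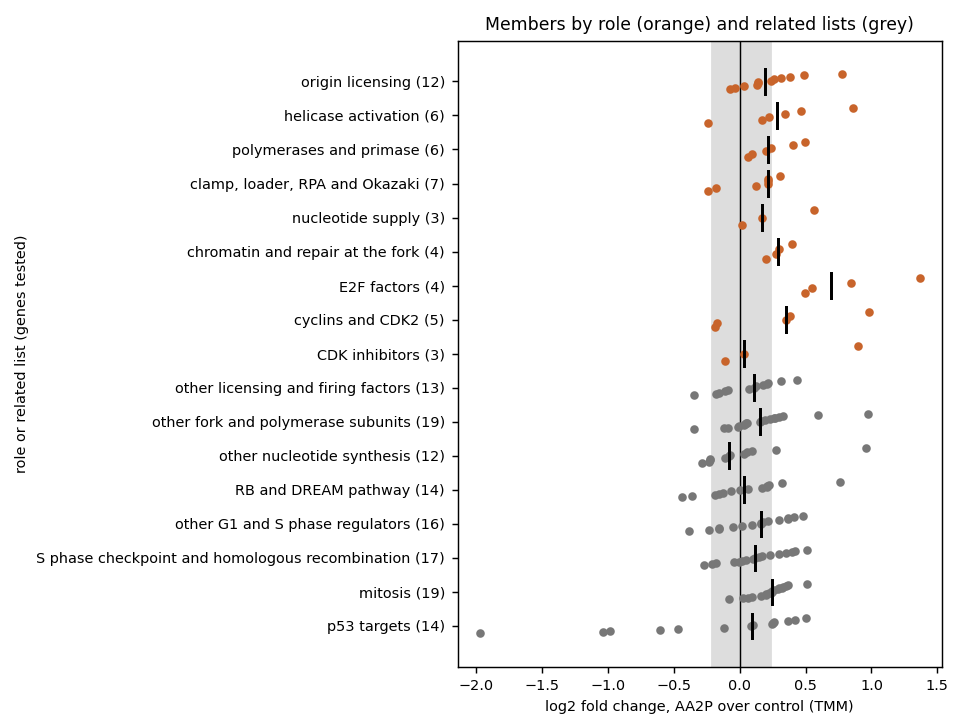
Log2 fold change under TMM of each tested gene (points), AA2P over control, for the 50 members by role (orange) and the related lists (grey), with the number tested in brackets. Black bars are medians and the grey band runs from the lower to the upper quartile of all tested genes, -0.21 to 0.24. The E2F factors among the members (E2F1, E2F2, E2F7 and E2F8) have the highest median, 0.69. The genes of other nucleotide synthesis have the lowest, -0.08.

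The ratio of 2 genes within a library does not depend on how libraries are scaled. For 8 pairs of members, chosen after their values were seen, the log2 ratio of counts was compared between the groups with the exact permutation test, two-sided, which with 3 libraries against 3 cannot go below 0.1. The gene with the higher log2 fold change stands first in each pair, so the direction was set by the choice. The p-values do not cover that choice and are descriptive. The ratio shows an unequal change of the 2 genes and says nothing of which one changed. CCNE2 over CCND1 was at -5.79, -5.67 and -5.74 in control libraries 1 to 3 and at -4.39, -4.45 and -4.87 in AA2P libraries 1 to 3, a mean difference of 1.17. GINS4 over CDC45, partners in the active helicase, was at -1.71, -1.68 and -1.59 and then at -0.46, -0.56 and -0.64, a difference of 1.11. MCM4 over MCM2, subunits of 1 ring, was at 0.13, 0.07 and 0.05 and then at 0.50, 0.49 and 0.52, a difference of 0.42. CDKN2C over CDKN1B differed by 1.01, E2F2 over E2F1 by 0.90, CDC6 over ORC1 by 0.54 and RFC5 over RFC2 by 0.46. In these 7 pairs the groups did not overlap, and each had an exact permutation p of 0.1, or 0.114 after Benjamini-Hochberg adjustment over the 8 pairs. CDT1 over GMNN, the licensing factor and its inhibitor, overlapped between the groups, with a mean difference of 0.17 and an exact permutation p of 0.7. Without control replicate 3 that difference was -0.04.

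**Figure D5:**
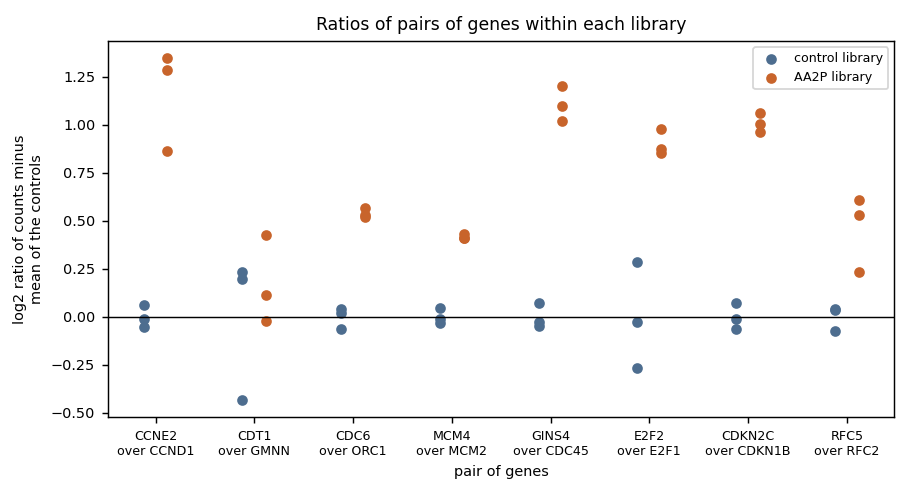
Log2 ratio of the counts of 2 genes in each library, minus the mean of the 3 controls, for 8 pairs (control libraries blue, AA2P libraries orange). The AA2P libraries lie above the controls in 7 pairs, and in CDT1 over GMNN the groups overlap. The pairs and their order were chosen after the values were seen.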

How the data were processed

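Every value was computed from the read counts per gene that the authors deposited for the 6 libraries, which are whole numbers and not normalized. The submitters' processing notes name bcl2fastq and HISAT2 2.0.5. Which tool counted the reads, on which annotation, build and strand, is not given in the sources used here, so no coordinates are printed. Symbols came from a table of gene names and were found for 13141 of 17670 rows. Reads of 7 members could be shared with a protein-coding gene that overlaps them in the RefSeq table of assembly Sscrofa11.1: MCM5 (with MARK3), MCM7 (AP4M1), RFC4 (EIF4A2), RFC5 (WSB2), UHRF1 (ARRDC5), BRCA1 (NBR1) and CCNE2 (INTS8). Counting genes of any type, 15 members overlapped another gene in that table. Among them RFC3, MCM4 and ORC1 overlapped long noncoding RNA genes by 60026, 10752 and 8916 bp, and POLE a pseudogene by 1586 bp. The overlap of RFC4 with EIF4A2 was 5 bp. Promoter and protein sequences were not used here.

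Differences were tested in R 4.3.3 with edgeR 4.0.16 (quasi-likelihood F test, TMM factors, filterByExpr, group as the only term) with p-values adjusted by Benjamini-Hochberg across all 12701 genes that passed, and called at 0.05. All 50 members with a row passed the filter, with 77 to 11871 reads a library. Fold changes compare AA2P to control, and a standard error is the size of the log2 value divided by the root of F. The common biological coefficient of variation was 5.49%. The procedure was tested on simulated counts. Alternatives were scaling by library totals, DESeq2 size factors and upper quartile factors, the Wald test of DESeq2 1.42.0, limma-voom (limma 3.58.1), no filter or at least 1 CPM in 3 libraries, a replicate block, leaving out single libraries, and an adjusted p of 0.01. The ratios of gene pairs and the emphasis on AA2P library 3 were added after seeing the data.

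The members and lists were chosen with earlier results of these data known. Named were all members, with values by library for up to 3 called genes of each role and for genes called lower, and up to 3 called genes of each related list by smallest p. Values of further members and RPA1, RPA2, LIG1, MCM2, TYMS, CDKN1A, CDKN1B, GMNN, POLA1, CHAF1A, DUT and TIPIN were added after they were seen. No library was left out of the comparison. Some markers on the cell type lists are not reported here.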

Additional observations from a re-analysis of the deposited data

How the results depend on the processing

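Scaling decided the lower calls: with library totals 0 members were lower instead of 5. Leaving out each library in turn gave 27 to 34 members higher, 3 to 5 lower and 5715 to 6875 of all genes called, against 33, 5 and 6615, and the lower count was 3 without control replicate 1. Over all genes 3302 were higher and 3313 lower under TMM, and 5727 and 1822 with library totals. Of the 33 higher calls 25 were made in each of the 14 alternative fits, and none of the 5 lower calls was. The sign turned for members that were not called: with library totals MCM2 was at 0.13, MCM5 at 0.10 and CDKN1B at 0.0596. Leaving out each library gave MCM5 -0.1375 to 0.0016 (the highest without control replicate 1), MCM6 -0.0048 to 0.0725 (the lowest without AA2P replicate 1) and TYMS -0.01 to 0.0481 (the lowest without AA2P replicate 2). The difference of CDT1 over GMNN ran from -0.0433 without control replicate 3 to 0.292 without control replicate 2. The cause was not tested. Same-numbered libraries showed no shared deviation from their group means (r of -0.04, -0.02 and -0.06). With 3 libraries a group of unstated origin, these values cannot tell whether the numbers pair them. With the replicate block 32 members were higher and 4 lower, and 6204 of all genes were called. At an adjusted p of 0.01, 28 members were higher and 4 lower. With 3 libraries a group and standard errors of 0.05 to 0.13 on the log2 scale, changes of the size of the members' median, 0.23, can be missed.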

Other observations

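The AA2P library nearest the mean of the controls was not the same for all members. Among the 38 members called in either direction it was library 3 in 18 genes, library 1 in 15 and library 2 in 5, on the log2 scale with a pseudocount of 0.5 CPM. Among all 6615 called genes it was library 3 in 54.7%, library 1 in 27.6% and library 2 in 17.7%. CCNE2, RFC2 and E2F8 were among the genes in which library 3 lay nearest.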
